A study of Anopheles coluzzii and Anopheles merus with 32 samples.

Results

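Whole larvae of the malaria mosquito Anopheles coluzzii kept in freshwater (FW) were compared at 2 ages, to describe which messenger RNAs differ between young and older larvae of this species. The 8 libraries were picked by the species, age and water in their labels, out of 32 in the series. All larvae were reared in FW. At 18 h or 66 h after hatching they were moved for 6 h into FW again, the arm that served as the control for saltwater (SW), and each of the 4 libraries of an age was made from a pool of 35 to 50 whole bodies. The strain, the sex of the larvae and the instar reached at each age are not stated in the labels. The rest of the series holds the same ages of An. coluzzii after 6 h in SW and of the related species An. merus in both waters, again with 4 libraries per group.

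Mosquito larvae live and feed in water and grow through a series of instars separated by moults. At each moult a pulse of the steroid hormone ecdysone leads to the synthesis of a new cuticle and the shedding of the old one, so that the transcripts of a whole larva depend both on its size and on where it stands between moults. Larval tissues such as the fat body and midgut grow during this time, and the precursors of adult organs develop inside the larva. None of this was measured here. In whole bodies, more cells of a type and more RNA per cell cannot be told apart.

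The table gives genes only by identifier. Of its 11025 identifiers 0 were found in the reference gene table used here, so no gene below is given a name or a function, and no sequence is shown. Levels are in CPM, the reads of a gene per 1e+06 reads after scaling, and the 10505 genes that reached 1 CPM on average over the series entered the tests.

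The 18 h libraries held 5006216 to 11873495 reads and the 66 h libraries 4207326 to 11865110. These are the reads counted for the 11025 identifiers, not all reads sequenced, and shares of reads below are shares of them. Replicates correlated at r = 0.961 to 0.987 at 18 h and 0.969 to 0.991 at 66 h (log2 values, across genes). At 18 h, replicates 1 and 2 stood closer to each other (r = 0.985) than to replicates 3 and 4 (0.961 to 0.97), and they were also the shallower pair. The median SD of a gene between replicates was alike at both ages, at 0.198 and 0.202 on the log2 scale. The number of genes with at least 1 read was similar too, at 10851 to 10927 at 18 h and 10807 to 10976 at 66 h. The libraries are numbered 1 to 4 at 18 h and 17 to 20 at 66 h and no preparation or run dates are given. Over the whole series the 18 h libraries are numbered 1 to 16 and the 66 h libraries 17 to 32. Any difference in handling that followed this order cannot be told apart from age, here or in the other age comparisons below.

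The ages differed for many of the genes tested, a majority in the main fit but not in every alternative run. Of the 10505 genes, 5594 (53.3%) had an adjusted p below 0.05 (limma on log2(CPM + 1), Benjamini-Hochberg), the threshold for a call throughout. At 66 h, 2859 genes (27.2%) were higher and 2735 (26%) lower. Among the higher genes 1409 (13.4% of those tested) rose 2-fold or more and 563 (5.36%) rose 4-fold or more, and among the lower genes 1021 (9.72%) fell 2-fold or more. The 4 libraries of one age lay wholly above the 4 of the other for 2675 genes in the direction of 66 h (25.5%) and for 2561 in the direction of 18 h (24.4%). Of the called genes 4991 were free of overlap, and 603 were called although 1 or more libraries crossed.

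**Figure D1:**
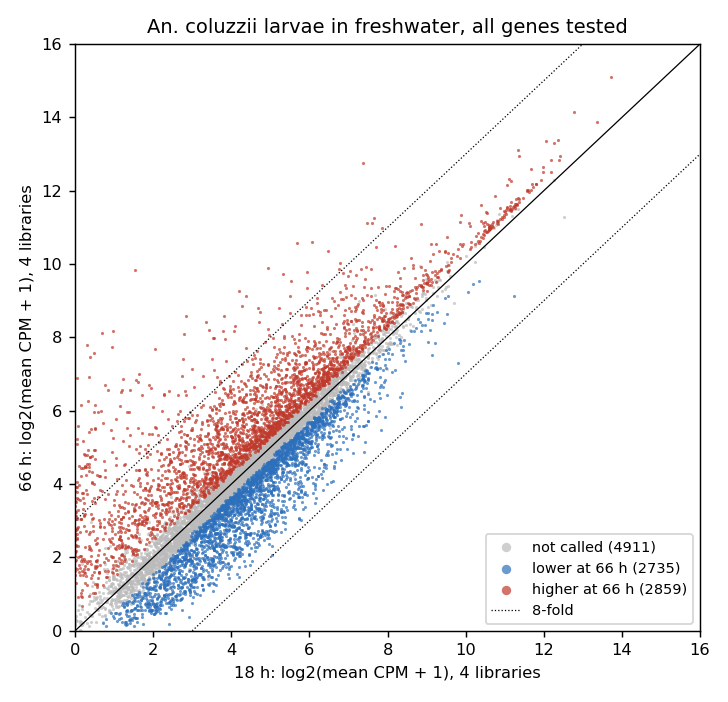
Each point is 1 of 10505 genes, with log2(mean CPM + 1) over the 4 libraries at 18 h on the x axis and at 66 h on the y axis. Red points were called higher at 66 h, blue lower and grey neither, the solid line marks equal levels and the dotted lines an 8-fold difference. Red points reach far beyond the upper dotted line at low 18 h levels, while the blue points stop short of the lower one.

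The split between directions depends on how libraries are put on a common scale. The deposited values were scaled by the authors with the trimmed mean of M values (TMM), which sets the bulk of genes level between libraries. Their factors were 1.25 to 1.36 at 18 h and 0.921 to 0.972 at 66 h, so the ages lie apart in it without overlap. With every library set to the same sum instead, 1530 genes were higher and 5641 lower, so that rises made up 21.3% of the calls in place of 51.1%. The median of all genes was then -0.45 on the log2 scale, against -0.01 as deposited. After quantile normalisation they made up 40.7%. Directions below are therefore relative to the bulk of genes.

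In the deposited scaling the largest changes were mostly rises. On the log2(CPM + 1) scale 211 genes were at least 8-fold higher at 66 h (2.01%) and 0 were 8-fold lower, the lowest value being -2.97. Adding 1 to every value understates changes of low genes, so the ratio was also taken without it, from the reads of the 4 libraries summed and with 3 reads over the group as the floor. Among called genes with at least 5 CPM at the higher age, 240 were then at least 8-fold higher (2.28%) and 14 at least 8-fold lower (0.133%). At 16-fold or more there were 172 and 1, and 45 genes were at least 128-fold higher. The gene with the large fall was AGAP008732, picked out after its values were seen. Its young libraries held 3.98, 5.56, 4.25 and 12.3 CPM, and the older ones 0.118, 0.759, 0.18 and 0.0915 CPM, which rest on 6 reads in all. Which direction had more genes depended on the scaling at the smaller folds. At 2-fold or more, 1269 genes were higher and 956 lower as deposited, against 822 and 1984 with equal library sums. At 4-fold or more the counts were 528 and 291 as deposited and 341 and 566 with equal sums, so the balance turned at both sizes. With equal sums 195 and 87 genes passed 8-fold, and 142 and 2 passed 16-fold, where rises outnumbered falls under both scalings.

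**Figure D2:**
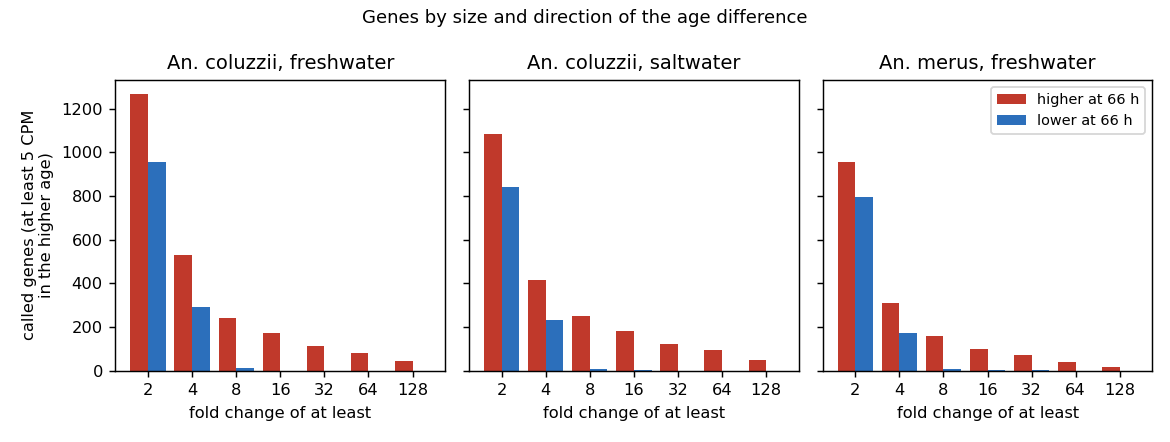
Bars count the called genes whose pooled ratio between the ages is at least the fold on the x axis, red for higher and blue for lower at 66 h, in An. coluzzii in FW, An. coluzzii after SW and An. merus in FW. In An. coluzzii in FW 1269 and 956 genes are counted at 2-fold, 240 and 14 at 8-fold, and 45 and 0 at 128-fold.

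On the log2(CPM + 1) scale, the highest change among the genes that passed the naming rule belonged to AGAP013147. Its 18 h libraries held 2.06, 2.27, 2.02 and 1.14 CPM and its 66 h libraries 755, 824, 966 and 1080.5 CPM. The ages lie far apart with little spread inside either, at 1.87 ± 0.499 and 906 ± 146 CPM (mean ± SD, n = 4). The log2 fold change was 8.31 ± 0.16 (SE, limma adjusted p = 1.2e-09), and the pooled ratio was 521-fold. From near the bottom of the table at 18 h (rank 9776 by mean level) it came to rank 175.

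AGAP013729 was almost without reads in young larvae, with 0.589, 0.227, 0.144 and 0 CPM, 8 reads in all. At 66 h the libraries held 148, 197, 307 and 224 CPM, so that each lay far above every young library. The log2 fold change was 7.44 ± 0.22 (limma adjusted p = 1.5e-08). As a pooled ratio its rise was 1190-fold, larger than that of AGAP013147. The largest pooled rise among called genes with at least 5 CPM at the higher age was 1915-fold.

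On the log2(CPM + 1) scale the lowest values belonged to AGAP011902 and AGAP009878. AGAP011902 went from 26.5, 26, 32.6 and 41.7 CPM in young larvae to 2.59, 3.8, 2.34 and 3.94 CPM in older ones, a log2 fold change of -2.97 ± 0.19 (limma adjusted p = 1.7e-06). The ages did not overlap, and the gene was still read in every older library. For AGAP009878 the young libraries held 37.4, 39, 28.6 and 23.4 CPM, and the older ones 7.55, 2.02, 4.15 and 2.01 CPM, of which replicate 1 was the highest. Its log2 fold change was -2.86 ± 0.34 (limma adjusted p = 0.00014). As pooled ratios these falls were 10.4-fold and 7.48-fold, smaller than the 34.5-fold fall of AGAP008732.

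**Figure D3:**
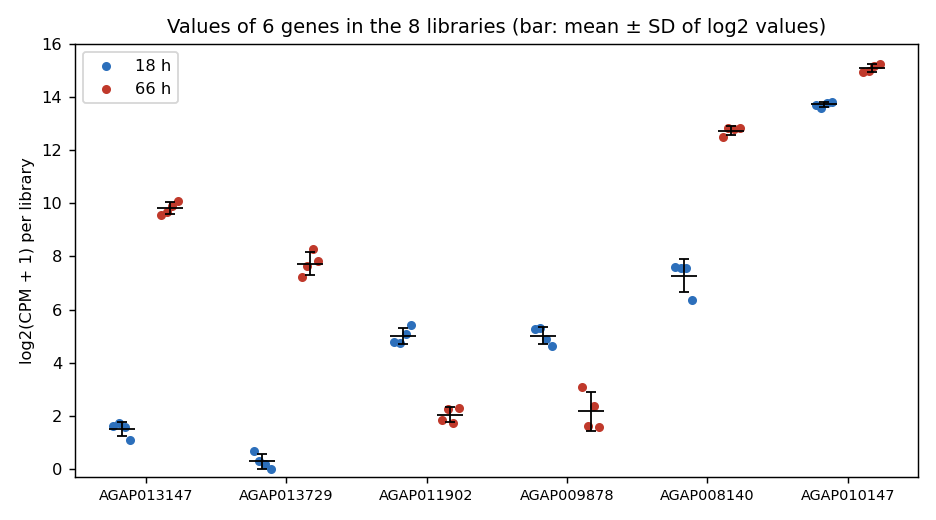
The y axis gives log2(CPM + 1) in each of the 8 libraries for 6 genes on the x axis, blue at 18 h and red at 66 h, with the mean and SD of the log2 values as bars. AGAP013147, AGAP013729, AGAP008140 and AGAP010147 are higher at 66 h and AGAP011902 and AGAP009878 lower, and the ages do not overlap in any of the 6.

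Genes close to silent at 1 age were mostly silent in the young larvae. A mean below 1 CPM at 18 h and of at least 5 CPM at 66 h was found for 138 genes, and the reverse for 15. For 85 genes the 66 h mean was at least 10 CPM, and for 9 at least 100 CPM, against 0 and 0 in the reverse direction. No read at all in the 4 young libraries, with a pooled level of at least 5 CPM at 66 h, was seen for 8 genes, of median 9.05 CPM. A count of 0 there allows up to 0.0676 CPM (3 reads over the 4 libraries), a limit for counting error only, since reads carry no molecular identifiers. In the reverse direction 0 genes had 3 reads or fewer over the older libraries. The 211 genes at least 8-fold higher had a median of 2.64 CPM in young larvae and of 70.2 CPM in older ones, and the groups did not overlap for 203 of them. The 165 genes at least 4-fold lower (1.57%) had medians of 28.7 and 5.28 CPM, without overlap for 164. The size of a change was used to choose these sets, so these figures only describe them.

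The direction of change also varied with the level of a gene, taken as its mean over all 32 libraries. The 8 libraries compared here enter that mean, so a rise itself moves a gene towards a higher level. The shares and medians by level, under any scaling, therefore only describe these groups of genes. Of the 1820 genes with a mean of 1 to 5 CPM over all libraries, 16% were called higher and 27.6% lower at 66 h. Of the 274 genes with at least 500 CPM, 79.2% were higher and 4.38% lower. The median log2 fold change rose over the 5 levels, from -0.15 at 1 to 5 CPM and -0.13 at 5 to 20, to 0.03 at 20 to 100, 0.35 at 100 to 500 and 0.45 above. With equal library sums the medians were -0.51, -0.57, -0.43, -0.11 and -0.03, so abundant genes again lay above scarce ones, but 22.6% of the most abundant were called higher and 12.8% lower. Quantile normalisation, which gives every library the same distribution of values, left medians of -0.13 to -0.08.

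The reads of older larvae were concentrated in fewer genes, a measure that no scaling enters. The 10 most abundant genes of a library took 8.59% to 9.97% of its reads at 18 h and 11.7% to 13.3% at 66 h, without overlap (means 9.09% ± 0.612 and 12.4% ± 0.757, SD, n = 4). For the 100 most abundant the shares were 34.8% to 35.9% and 37.8% to 42.2%.

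The same 3 genes led at both ages. AGAP010147 was first at both, with 13394, 12401, 14052 and 14434 CPM in the young libraries and 31456, 32051, 37258 and 38457 CPM in the older ones. Its share of the counted reads was 1.77% ± 0.0833 and 3.28% ± 0.282 (mean ± SD, n = 4), and its log2 fold change 1.36 ± 0.08 (limma adjusted p = 1.3e-06). After quantile normalisation that change was 0.17 and not called, a scaling that gives the top rank the same value in every library. AGAP006186 went from 0.914% ± 0.0676 to 1.69% ± 0.152 of reads, with a log2 fold change of 1.36 ± 0.08. AGAP007406 held 1.38% ± 0.0298 of reads at 18 h and 1.42% ± 0.156 at 66 h. Its log2 fold change was 0.51 ± 0.08 in the deposited scaling, 0.04 with equal library sums and -0.17 after quantile normalisation, so its direction depends on the scaling.

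Between the ages 87 of the 100 most abundant genes were shared. Of the 100 at 66 h, 91 were called higher, 0 lower and 9 were not called, in the deposited scaling. Of the 100 at 18 h, 89 were called higher and 1 lower, against 27.2% and 26% of all genes tested. Each set was chosen by a level that also enters the call, so these counts only describe them. Among the 13 that entered, AGAP008140 came from farthest, from rank 659 to rank 12, and was picked out for that. Its young libraries held 193, 189.9, 189.9 and 80.5 CPM, of which replicate 4 was low, and its older libraries 5806, 7229, 7056 and 7333 CPM. Its share of reads rose from 0.0215% to 0.645%, with a log2 fold change of 5.46 ± 0.28 (limma adjusted p = 2.2e-06).

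The age difference was measured again in libraries that share none of these 8. Their numbers follow age in the same order, so handling that followed the numbers cannot be told apart from age there either. In An. coluzzii after 6 h of SW, 5361 genes (51%) were called between 18 h and 66 h, 2786 higher (26.5%) and 2575 lower (24.5%) at 66 h. Of the 5594 genes called in FW, 5533 (98.9%) had the same sign there and 4472 (79.9%) were called in the same direction, which is 83.4% of the SW calls, while 1 was called in the opposite one. Read the other way, of 1194 genes at least 2-fold higher with age after SW (11.4%), 1090 (91.3%) were called higher in FW, with a median log2 fold change of 1.76. Of 933 at least 2-fold lower (8.88%), 919 (98.5%) were called lower, with a median of -1.52. The median of all genes was -0.01. The SW-chosen genes that rose took 10.8% to 11.5% of the reads of the FW libraries at 18 h and 24.6% to 25.4% at 66 h. Those that fell took 4.19% to 4.87% and 0.937% to 1.12%. Neither pair of ranges overlapped.

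For the 4 leading genes the interaction of water with age was not called (limma adjusted p = 0.79 to 0.92). AGAP013147 had log2 fold changes of 8.31 in FW and 8.83 in SW, AGAP013729 of 7.44 and 7.21, AGAP011902 of -2.97 and -3.21, and AGAP009878 of -2.86 and -2.12. Of the 211 genes at least 8-fold higher in FW, 199 were called higher after SW and 149 were at least 8-fold higher there, where 216 genes (2.06%) reached that size. Of the 165 at least 4-fold lower, 165 were called lower after SW.

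Whether the age difference depended on the water was tested as an age-by-water term over the 16 An. coluzzii libraries. This term was called for 3 genes (0.0286%), with 649 at an unadjusted p below 0.05. edgeR on recovered reads called 2, and DESeq2 called 18. In FW AGAP011426 rose from 4.27, 4.42, 4.18 and 4.97 CPM to 16.4, 14.9, 18.4 and 15.8 CPM, without overlap. After SW its young libraries held 5.77, 4.02, 4.25 and 4.47 CPM and its older ones 6.5, 5.51, 4.42 and 6.59 CPM, and the ages overlap (interaction 1.41 ± 0.19, limma adjusted p = 0.016). AGAP028216 had an interaction of -2.17 ± 0.34 (limma adjusted p = 0.03; 0.987 with edgeR). It had 1 read over the young FW libraries and 3 over the young SW ones, and reached 1.45 ± 1.12 CPM in older larvae in FW and 10.1 ± 2.35 CPM after SW. AGAP006980, at 0.411 ± 0.125 and 1.42 ± 0.796 CPM in FW and 3.92 ± 2.2 and 0.146 ± 0.039 CPM after SW, had an interaction of 2.70 ± 0.4 (limma adjusted p = 0.024). It fell outside the naming rule and was named after its values were seen. With single libraries left out the interaction stayed at 1.31 to 1.47 for AGAP011426, at -2.44 to -1.97 for AGAP028216 and at 2.50 to 2.94 for AGAP006980, while limma adjusted p reached 0.0606, 0.108 and 0.0866. The number of calls moved accordingly: leaving out 18 h FW replicate 1 or 2, or 66 h FW replicate 1 or 4, left 0 genes. Leaving out 66 h SW replicate 1, 3 or 4 left 1, and leaving out 18 h FW replicate 4 gave 6.

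The age difference was also set against that of An. merus in FW, where 5309 genes (50.5%) were called, 2832 higher (27%) and 2477 lower (23.6%) at 66 h. Of the 5594 genes called in An. coluzzii, 5339 (95.4%) had the same sign in An. merus and 4164 (74.4%) were called in the same direction, which is 78.4% of the An. merus calls, while 23 were called in opposite directions. Genes chosen in An. merus alone, 977 at least 2-fold higher (9.3%) and 810 at least 2-fold lower (7.71%), moved as sets in every An. coluzzii library. Their mean log2(CPM + 1) was 3.47 to 4.04 at 18 h and 5.67 to 5.85 at 66 h for the genes that rose. For the genes that fell it was 4.19 to 4.41 and 2.56 to 2.84. The young An. coluzzii FW libraries were more spread in the first of these (SD 0.285) than the older ones (SD 0.0804), with replicates 1 and 2 at 3.47 and 3.63 and replicates 3 and 4 at 4.04 and 4.02. Across all 10505 genes the log2 fold changes had a Pearson r of 0.844 with those of An. merus and of 0.924 with those after SW, where genes are not independent and each pair shares the deposited scaling.

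**Figure D4:**
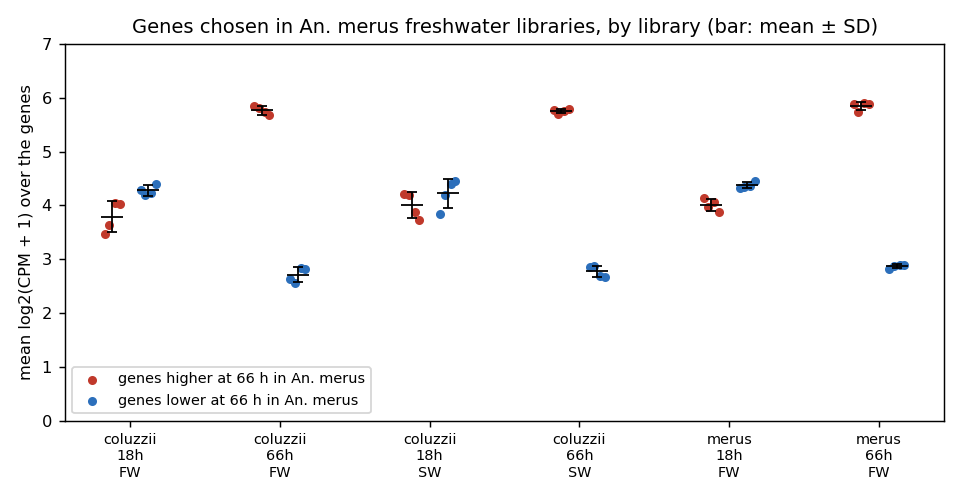
Points give, for each library of the 6 groups on the x axis, the mean log2(CPM + 1) of the 977 genes at least 2-fold higher (red) and the 810 at least 2-fold lower (blue) at 66 h in An. merus in FW, with the mean and SD of 4 libraries as bars. In the An. coluzzii FW libraries the red points lie at 3.47 to 4.04 at 18 h and 5.67 to 5.85 at 66 h, and the blue points move the other way. The 2 An. merus groups shown chose these genes.

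A core of genes changed in all 3 comparisons, which share no library but have the same order of library numbers with age. Of the 10505 genes tested, 1798 were called higher and 1799 lower in An. coluzzii in FW, in An. coluzzii after SW and in An. merus in FW. Each comparison alone called 26.5% to 27.2% of all genes higher and 23.6% to 26% lower. At least 2-fold in all 3 were 637 and 665, where each comparison alone had 9.3% to 13.4% and 7.71% to 9.72% of all genes. At least 8-fold higher in all 3 were 68, against 1.03% to 2.06% of all genes in each alone.

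Where the species differ in their age difference was tested by the interaction of species and age over the 16 FW libraries. It was called for 380 genes (3.62%), of which 218 (2.08%) had the more positive age difference in An. coluzzii and 162 (1.54%) the more negative. For 262 of the 380 An. coluzzii had the greater change in size. It also had the greater change for 2821 of the 4164 genes called in the same direction in both species, so this is not particular to the 380. Among the 380, 151 were called with age in both species in the same direction, 138 of them rising in An. coluzzii. Another 136 were called in An. coluzzii and not in An. merus, 100 of them rising, 70 in An. merus and not in An. coluzzii, and 23 in opposite directions. Of the 211 genes at least 8-fold higher in An. coluzzii, 176 were called higher in An. merus too. Their median log2 fold change was 3.77 in An. coluzzii, which chose them, and 2.31 in An. merus. For the 108 genes (1.03%) chosen by the same size in An. merus the medians were 3.79 in An. coluzzii and 3.72 in An. merus.

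**Figure D5:**
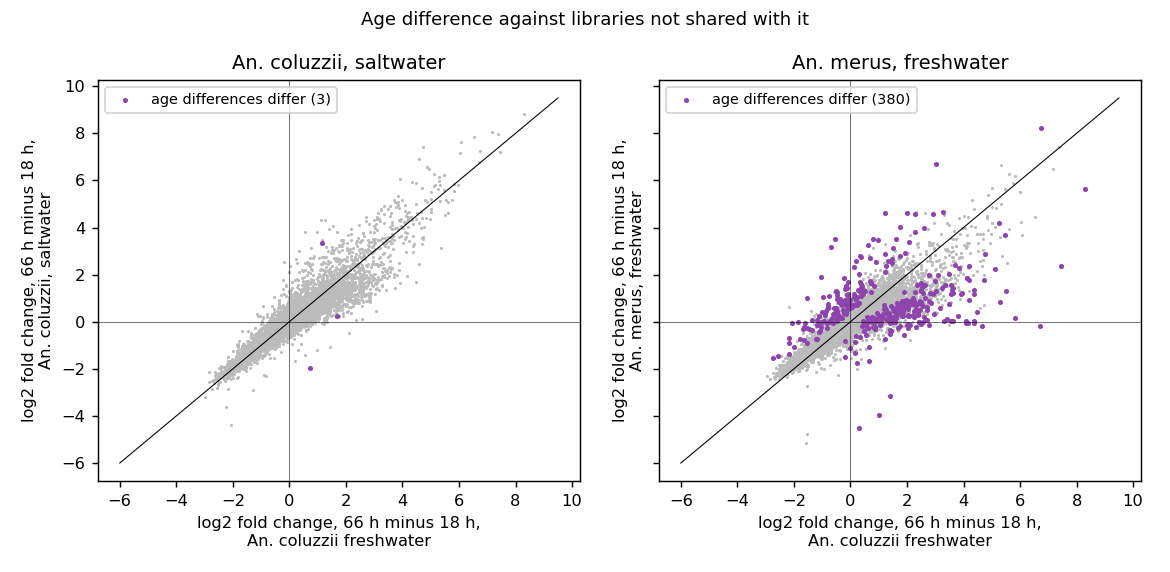
Each point is a gene, with its log2 fold change (66 h minus 18 h) in An. coluzzii in FW on the x axis and, on the y axis, that in An. coluzzii after SW (left) or in An. merus in FW (right). Purple points were called in the test of the difference between the 2 age differences, 3 on the left and 380 on the right, and the line marks equal changes.

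AGAP002911 had the most positive interaction, at 6.91 ± 0.35 (limma adjusted p = 2.5e-09). In An. coluzzii it went from 0, 0, 0.072 and 0.0672 CPM to 69.3, 68.8, 146 and 189.8 CPM, a rise from 2 reads to 3742. In An. merus it had 5 reads over the young libraries and 0 over the older ones, which allows up to 0.0651 CPM. AGAP005596 followed, at 5.70 ± 0.35 (limma adjusted p = 2.3e-08). It rose from 0.147, 0.227, 0.288 and 0.336 CPM to 84, 33.7, 100.8 and 85.3 CPM in An. coluzzii, with 2 and 8 reads in all in An. merus, and edgeR gave its interaction an adjusted p of 0.194. Both species were counted under 1 set of identifiers. Whether reads of An. merus align to these genes as readily was not tested.

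The most negative interactions were those of AGAP005690, at -4.07 ± 0.77 (limma adjusted p = 0.0089), and AGAP005689, at -3.86 ± 0.95 (limma adjusted p = 0.041). In An. coluzzii the young libraries held 0.737, 0.567, 2.81 and 2.22 CPM of AGAP005690 and the older ones 1.89, 0.253, 0.541 and 0.275 CPM, with overlap. In An. merus it rose from 9.35 ± 4.07 to 146 ± 113 CPM, and the spread between its older libraries was wide. AGAP005689, the neighbouring identifier, averaged 2.57 ± 2.55 and 0.962 ± 0.998 CPM with age in An. coluzzii. In An. merus its means were 4.09 ± 2.38 and 56.1 ± 45.5 CPM. With single libraries left out its interaction stayed at -4.32 to -3.39, but the call was lost for some libraries of either species (limma adjusted p up to 0.0826). It was also lost with a pseudocount of 0.5, equal library sums or thinned reads (limma adjusted p = 0.0592, 0.0555 and 0.0991). Neither gene was called with age in An. coluzzii in FW (limma adjusted p = 0.22 and 0.38).

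Among the leading age genes of An. coluzzii, the interaction of species and age was called for the rises. These genes were chosen by their change in An. coluzzii FW libraries that also enter the interaction, which favours a greater change in An. coluzzii. Whether reads of An. merus align to them as readily was not tested. AGAP013147 had an age difference of 8.31 in An. coluzzii and 5.65 in An. merus (interaction 2.66 ± 0.26, limma adjusted p = 9.2e-06). AGAP013729 had 7.44 and 2.38 (interaction 5.06 ± 0.4, limma adjusted p = 8.6e-07). For AGAP011902, at -2.97 and -2.32, and AGAP009878, at -2.86 and -2.42, the interaction was not called (limma adjusted p = 0.23 and 0.63).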

How the data were processed

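Larval RNA was read from TruSeq RNA v2 libraries with polyA selection, per the labels' protocols, a kit that does not mark strand. The deposited table holds a signal, CPM scaled by TMM factors by the authors, for 11025 identifiers and 32 libraries. Its name says that it was filtered. The filter, the genome build and the annotation are not given in the sources used here. Trimmomatic, Bowtie2, TopHat2, HTSeq and edgeR are named without version or role, per the submitters' processing notes. In each library all values were whole multiples of that of 1 read (100% within 0.01 reads), which gave whole reads. These were used for the read totals, the shares of reads, the pooled ratios and the alternatives. The labels do not say whether the pools are of separate cultures, and the p-values therefore speak only of library-to-library spread, possibly technical. No pair of replicates agreed within sampling noise: the An. coluzzii FW pairs differed by 5.36 to 33.2 times it (chi-square per degree of freedom, genes with at least 20 reads).

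Genes averaging 1 CPM or more were tested with limma 3.58.1 in R 4.3.3 on log2(CPM + 1), with trend and robust options, two-sided, with Benjamini-Hochberg adjustment over all 10505. Fold changes are on that scale, which understates changes of low genes. Each comparison was fitted on its own libraries (6 residual degrees of freedom, 12 for interactions). The plan had named the unit CPM, and the limma test also fits this signal. Alternatives used edgeR 4.0.16 and DESeq2 1.42.0 on recovered reads, other scalings, filters and pseudocounts, thinning and left-out libraries. The model was also run on simulated counts, whose outcome is not reported here and is not used as support for the calls. Figures were drawn with matplotlib 3.10.9.

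The comparison, lists and tests were chosen with earlier results of these data known. Gene lists planned by name matched 0 identifiers and none was tested. Genes were named as the 2 strongest rises and 2 strongest falls on the log2(CPM + 1) scale. They were taken from called genes with at least 5 CPM at the higher age and no overlap. By pooled ratio the order differs. AGAP008732 fell 34.5-fold and AGAP009878 7.48-fold, and AGAP013729 rose 1190-fold against 521-fold for AGAP013147. Also named were the 2 most positive and negative called interactions with at least 5 CPM in the highest group, where 3 of each had been planned, and the 3 most abundant genes per age. Reads shared between near-identical gene copies or overlapping genes could not be examined.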

Additional observations from a re-analysis of the deposited data

Results flagged for a closer look

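In 3 of the 48 groups of 4 values examined (genes named in the text and library measures in the An. coluzzii FW groups), a single library stood apart by more of the group's range than Dixon's critical value for 4 values, and chance gives about 1 in 20. AGAP008140 was low in 18 h replicate 4, at 80.5 CPM against 189.9 to 193, a gap of 0.974 of the range. AGAP008732 was high in 66 h replicate 2, at 0.759 CPM against 0.0915 to 0.18, a gap of 0.867. AGAP028216 had its only young FW read in replicate 3, a gap of 1, the whole range, that rests on 1 read.

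The age difference itself differed between species, by the interaction test, for AGAP002911 (6.91), AGAP005596 (5.70), AGAP005690 (-4.07) and AGAP005689 (-3.86), all as log2 values in An. coluzzii minus An. merus. It differed between waters, FW minus SW, for AGAP011426 (1.41), AGAP028216 (-2.17) and AGAP006980 (2.70). These calls were not all stable. The call was lost under 6 alternatives and kept under 22 for AGAP011426, and lost under 17 and kept under 10 for AGAP028216. For AGAP006980 it was lost under 12 and kept under 15, and for AGAP005689 lost under 13 and kept under 15. AGAP028216 was at or below 1.45 CPM in 3 of the 4 An. coluzzii groups.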

How the results depend on the processing

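The 5594 calls ran from 4946 to 5344 with 1 library left out, and were 4654 without both 18 h libraries 1 and 2, 4674 with libraries thinned to 3769859 reads, 6154 in a fit over all 32 libraries and 5554 with edgeR. Counts of genes higher and lower moved with the scaling: with equal library sums they were 1530 and 5641, with 1955 at least 2-fold lower. With a pseudocount of 4, 595 genes were at least 2-fold lower and 100 at least 8-fold higher, and edgeR and DESeq2 gave 320 and 329 at least 8-fold higher, on a scale without that pseudocount. The interaction of species and age was called for 580 genes after quantile normalisation, 199 with thinned reads, 277 with edgeR and 546 with DESeq2, and for 286 to 498 with 1 library left out. The age-by-water term was called for 1 gene with a filter at 5 CPM, 8 in the fit over all libraries, 0 without both 18 h libraries 1 and 2, 0 with thinned reads, 18 with DESeq2, and 0 to 6 with 1 library left out. AGAP007406 changed sign after quantile normalisation, to -0.172. AGAP013147, AGAP013729, AGAP011902 and AGAP009878 kept their direction and their call under every alternative run. The causes were not tested. No paired analysis was possible because the labels number each library once over the whole series and give no replicate numbers.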

Other observations

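Genes that rose with age often carried neighbouring identifiers, which the report has not described. Ordered by number among the genes tested, 29% of the 1409 genes at least 2-fold higher at 66 h were followed by another such gene, against 13.4% of all genes, and 9.37% by one at least 2-fold lower. For the 1021 genes at least 2-fold lower the shares were 18.4%, against 9.72% of all genes, and 13.2%. Runs of 3 or more neighbours numbered 81 with higher and 30 with lower values, and runs of 5 or more 18 and 1. No test was made of these shares, identifiers stand in for positions that were not used here, and reads shared between near-identical copies could not be examined.

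Over all genes tested, 26.5% were called higher after SW and 27% in An. merus, and 24.5% and 23.6% lower. In An. coluzzii in FW, 25.5% were free of overlap in the direction of 66 h and 24.4% in that of 18 h. The interaction of species and age was called for 3.62%. The runs below were picked out after their values were seen. The longest went from AGAP010097 to AGAP010124, with 13 tested genes at 0 to 7.26 CPM at 18 h and 1.87 to 191 CPM at 66 h. All 13 were called higher after SW too and 6 in An. merus, the ages overlapped for some of them (8 of 13 were free of overlap), and the interaction of species and age was called for 0. The 12 genes from AGAP008446 to AGAP008459 rose by 1.04 to 3.89 on the log2 scale, and 12 were called higher after SW and 12 in An. merus, with the interaction of species and age called for 4. The 7 genes from AGAP006839 to AGAP006859 were nearly silent at 18 h, at 0 to 0.098 CPM, and stood at 3.11 to 14.6 CPM at 66 h, with 7 called higher after SW and 1 in An. merus, but the interaction of species and age was called for 0, so no species difference was shown, and 3 of the 7 were free of overlap. The longest run of lower values, the 6 genes from AGAP000213 to AGAP000219, stood at 2.92 to 38.5 CPM at 18 h and 0.637 to 15.5 CPM at 66 h, without overlap for any of the 6, and 6 were called lower in each of the other comparisons.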
